A study of Mus musculus with 8 samples.

Results

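The phospholipases A2 of skin are described here across control and RoraEKO epidermis. The members are 9 of the 55416 genes in the count table, found by their symbols in the GENCODE mouse annotation. Pla2g2e, Pla2g2f, Pla2g3 and Pla2g5 encode secreted enzymes, and Pla2g4a, Pla2g4b, Pla2g4d, Pla2g4e and Pla2g4f encode cytosolic enzymes. The tissue was the epidermis of the back at postnatal day 4 (P4), peeled from the dermis after brief heating and measured by RNA-seq. The 4 control libraries carry the genotype label WT. The 4 RoraEKO libraries are labelled as an epidermis knockout of Rora, made with floxed Rora alleles and a K14-Cre transgene. K14 (Krt14) drives Cre in basal keratinocytes and in the cells that descend from them, so that other cells of the peeled sheet are not targeted. The Cre and flox status of the controls is not given in the sources used here, beyond their being called littermates. The labels do not say that each library came from its own animal, and p-values measure the spread between these libraries.

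A phospholipase A2 cuts the fatty acid from the middle position of a glycerophospholipid and leaves a lysophospholipid. Secreted forms are small calcium-dependent enzymes that act outside the cell. Cytosolic forms are larger, and most of them carry a C2 domain that brings them to membranes when calcium rises. In the epidermis the freed fatty acids feed barrier lipids and the acidity of the stratum corneum, arachidonic acid feeds prostaglandins and leukotrienes, and lysophospholipids act as signals in their own right.

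Of the 9 members, Pla2g4e was the only one that passed both cutoffs, and it rose 3.33-fold in the RoraEKO epidermis. No member fell past the cutoffs. A gene had to have an adjusted p under 0.05 in the edgeR quasi-likelihood test across 13147 genes (Benjamini-Hochberg) and a fold change over 1.5, and 8 of the 9 members passed the filter on low counts. A share of 1 in 8 tested members stands beside 5.51% of all genes tested that passed in either direction, 2.30% that were higher and 3.22% that were lower in RoraEKO. Genotypes did not overlap for 3 of the 8 tested members, Pla2g4e, Pla2g4f and Pla2g5, against 12.9% of all genes tested. The tested members had a median log2 fold change of -0.02, beside -0.04 over all genes tested, and 4 lay above 0 and 4 below. By type, the 4 secreted members had a median of -0.27 and the 4 tested cytosolic members a median of 0.73.

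Several features of the libraries touch these values. Library totals ran from 17286903 to 26705533 counts. After scaling by TMM, 3 counts equalled 0.113 to 0.196 counts per 1000000 (CPM), depending on the library. Rora itself was measured at 158, 193, 187 and 309 CPM in controls A1, B1, C1 and C6 and at 154, 189, 237 and 206 CPM in RoraEKO A3, B4, C2 and C3. These groups overlapped (log2 fold change -0.11, SE 0.245, edgeR adjusted p = 0.877), and a count over the whole gene includes exons outside the deleted part, so it does not check the labels. Xist, the RNA of the inactive X chromosome, reached 416 CPM in control C1 and 527 CPM in control C6, and no other library exceeded 0.0546 CPM. The sex of the animals is not in the labels. Xist was spread unevenly over the genotypes, as no RoraEKO library was high in it. Of the C libraries, controls C1 and C6 were high in Xist and RoraEKO C2 and C3 were not. Xist and genotype thus coincide in any comparison of the C libraries alone. In a fit with Xist as a covariate (log2 CPM), Pla2g4e had a log2 fold change of 1.93 (edgeR adjusted p = 0.00731). The genotype difference in that fit rests mainly on controls A1 and B1, the controls without high Xist. Summed over 9 hair shaft markers, control A1 had 8440 CPM and RoraEKO A3 had 7610 CPM, while the other libraries lay between 2380 and 5940 CPM. Summed over 6 spinous keratinocyte markers, controls ran from 45000 to 71000 CPM and RoraEKO from 86400 to 108000 CPM without overlap, although none of the 6 markers passed the cutoffs. Krt1 and Krt10, the keratins of the spinous layer, made up most of that sum. Their log2 fold changes were 0.70 (edgeR adjusted p = 0.287) and 0.66 (edgeR adjusted p = 0.274). Markers of dermis were low beside those of keratinocytes, and summed fibroblast markers reached at most 10.4 CPM and summed endothelial markers at most 3.18 CPM in any library. The 5 erythroid markers summed to 47.8 to 334 CPM in control and 125 to 1040 CPM in RoraEKO, with log2 fold changes of 1.67 to 1.98. The 5 melanocyte markers summed to 25.2 to 56.2 CPM in control and 17.3 to 33.2 CPM in RoraEKO, with log2 fold changes of -1.07 to -0.23. None of these 10 passed the cutoffs. The 5 adipocyte markers, of which Fabp4 gave nearly all reads, summed to 300.0 CPM in control A1 and to 59.3 to 159 CPM elsewhere, and Plin1 and Lep were at 3 counts or fewer throughout. The part of these cells in the results was not tested. In bulk tissue, fewer cells of a type and less RNA per cell cannot be told apart.

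Pla2g4e, Pla2g4d and Pla2g4f lie next to one another on the minus strand of chromosome 2, and the bases before their starts are shown because these neighbours had higher values in RoraEKO without overlap between genotypes. The windows hold the 250 bases before the outermost annotated start of each gene in GENCODE release 39 (GRCm39), read 5′ to 3′ on the gene's own strand. They are chr2:120076085-120076334 for Pla2g4e, chr2:120119679-120119928 for Pla2g4d and chr2:120144654-120144903 for Pla2g4f. Capitals mark matches to any of 4 strings, on either strand. The first is AGGTCA, the half-site that nuclear receptors bind, RORα among them. The E-box was searched as CACGTG, which reads the same on both strands. For the AP-1 site the letters were TGANTCA, where N is any base. The TATA box was searched as TATAAA, and no marked match overlaps another.
Pla2g4e: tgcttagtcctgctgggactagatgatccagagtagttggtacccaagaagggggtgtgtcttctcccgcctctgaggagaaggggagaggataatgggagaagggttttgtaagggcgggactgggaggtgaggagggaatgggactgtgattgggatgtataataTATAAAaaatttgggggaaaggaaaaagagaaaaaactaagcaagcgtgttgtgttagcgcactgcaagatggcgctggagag
Pla2g4d: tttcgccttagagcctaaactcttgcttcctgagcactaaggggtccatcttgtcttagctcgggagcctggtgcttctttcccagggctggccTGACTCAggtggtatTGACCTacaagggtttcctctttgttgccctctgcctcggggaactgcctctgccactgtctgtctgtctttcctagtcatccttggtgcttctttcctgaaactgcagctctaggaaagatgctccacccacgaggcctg
Pla2g4f: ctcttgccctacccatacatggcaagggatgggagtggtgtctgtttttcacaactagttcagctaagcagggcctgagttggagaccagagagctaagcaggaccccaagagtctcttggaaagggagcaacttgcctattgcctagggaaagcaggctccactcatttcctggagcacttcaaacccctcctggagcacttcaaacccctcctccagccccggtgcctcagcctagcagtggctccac
The Pla2g4e window held the TATA box at bases -83 to -78 from the start. It also overlaps an exon of Gm74915, a gene on the other strand. The Pla2g4d window held the AP-1 letters at bases -156 to -150 and, on the reverse strand, the half-site at bases -141 to -136. No match to any of the 4 strings was in the Pla2g4f window. Among all 9 members, the half-site was found before 4 (Pla2g2e, Pla2g3, Pla2g4a and Pla2g4d), the AP-1 letters before 2 (Pla2g2e and Pla2g4d), the E-box before Pla2g5 alone and the TATA box before Pla2g4e alone. Of 21770 windows of the same length before protein-coding genes, 13.9% held the half-site, 6.46% the AP-1 letters, 5.69% the E-box and 12.5% the TATA box. These matches are descriptions of letters and not bound sites.

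Pla2g4e encodes the cytosolic enzyme that is best known as a calcium-dependent N-acyltransferase, which makes the precursors of anandamide and related N-acylethanolamines. It spans chr2:119996893-120076084. Its levels were 53.9, 35.6, 56.9 and 58.7 CPM in controls A1, B1, C1 and C6. In RoraEKO A3, B4, C2 and C3 they were 114, 198, 193 and 178 CPM. The lowest RoraEKO library, A3, was well above the highest control. The means were 51.3 ± 10.6 CPM in control and 171 ± 39 CPM in RoraEKO (SD, n = 4 each), with a log2 fold change of 1.73 (SE 0.251, edgeR adjusted p = 0.00182). RoraEKO minus control came to 1.07 between the A libraries, 2.47 between the B libraries and 1.68 between the means of the C libraries on the log2 CPM scale. The letters are the first in the sample titles, and what they stand for is not given. Pla2g4e stayed past both cutoffs in all 20 other fits that were run, with log2 fold changes from 1.60 to 1.94. Krt1 and Krt10 were higher in every RoraEKO library than in any control, as Pla2g4e was, while the other 4 spinous markers overlapped between genotypes, with log2 fold changes of -0.34 (Krtdap), -0.04 (Sbsn), 0.02 (Dsg1a) and 0.37 (Dsc1). The part of spinous cells in the result was not tested.

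Pla2g4d, the neighbour of Pla2g4e, encodes a cytosolic phospholipase that is known from psoriatic epidermis. Its control libraries held 5, 4, 6 and 6 counts. The RoraEKO libraries held 5 counts in A3, 44 in B4, 25 in C2 and 16 in C3. In CPM the controls lay between 0.190 and 0.284 and RoraEKO between 0.326 and 1.81, so that the genotypes did not overlap, with A3 just above the controls. The mean was 4.51 times higher in RoraEKO (0.230 ± 0.0394 CPM in control and 1.03 ± 0.628 CPM in RoraEKO, SD, n = 4 each). The gene did not pass the filter on low counts and was not tested with the others. With all genes of at least 1 count in the fit, 23735 genes, its log2 fold change was 2.23 (edgeR adjusted p = 0.0374). Pla2g4d entered 7 of the other fits, this one included, and passed both cutoffs in 2 of them. Its log2 fold changes there ran from 1.96 to 2.51 (edgeR adjusted p from 0.011 to 0.145). These values rest on few reads.

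Pla2g4f, which follows Pla2g4d along the chromosome, encodes a further cytosolic member with phospholipase activity in skin. Its levels were 189, 319, 345 and 332 CPM in controls A1, B1, C1 and C6. They were 349, 495, 539 and 471 CPM in RoraEKO A3, B4, C2 and C3. The lowest library of each genotype was the one with the letter A, and RoraEKO A3 was barely above control C1. The log2 fold change of 0.65 (SE 0.246, edgeR adjusted p = 0.136) did not pass, although the genotypes did not overlap. With the title letter as a block it was 0.67 (edgeR adjusted p = 0.00969), and the differences within letters A, B and C were 0.89, 0.63 and 0.58 on the log2 scale. DESeq2 gave 0.67 (adjusted p = 0.0423). Without control A1, the lowest control, it was 0.48 (edgeR adjusted p = 0.134), and with the letter C libraries only 0.58 (edgeR adjusted p = 0.183).

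**Figure D1:**
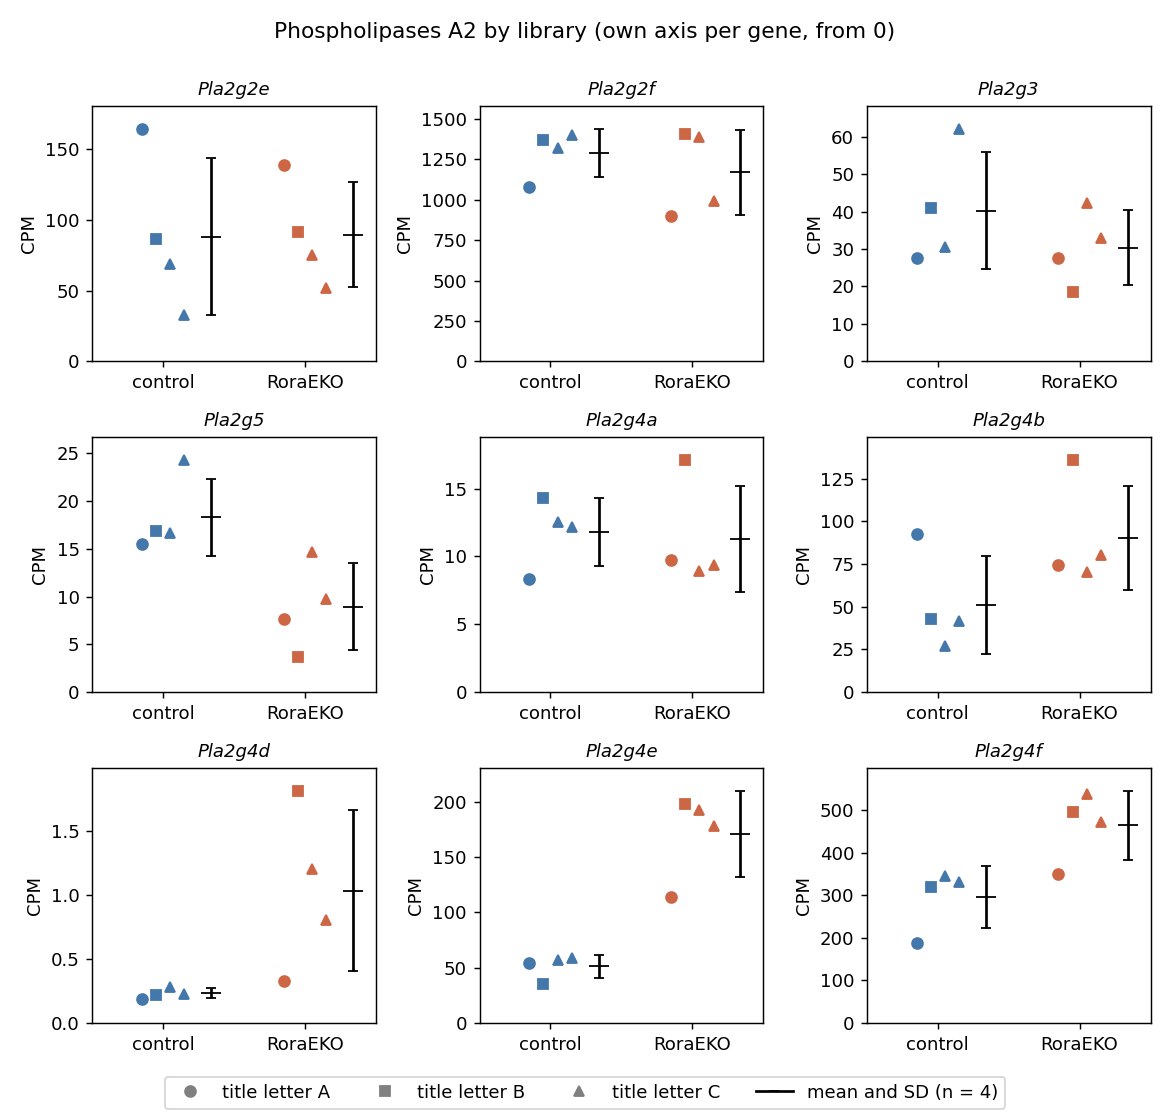
CPM of the 9 phospholipases A2 in each library, 1 panel per gene with its own axis from 0, controls in blue and RoraEKO in orange, point shape by title letter, black bars mean and SD (n = 4). The RoraEKO points of Pla2g4e lie between 114 and 198 CPM and the controls between 35.6 and 58.7 CPM; those of Pla2g4f, Pla2g4d and Pla2g5 do not overlap the controls either.

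Pla2g4b, the first cytosolic gene of the chromosome 2 group, had 42.7, 27.3 and 41.7 CPM in controls B1, C1 and C6 and 92.8 CPM in control A1. RoraEKO A3, B4, C2 and C3 had 74.3, 136, 70.4 and 80.4 CPM. Control A1 thus lay above 3 of the 4 RoraEKO libraries, and the remaining controls lay below all of them. The log2 fold change was 0.82 (SE 0.426, edgeR adjusted p = 0.272), and it became 1.28 (edgeR adjusted p = 0.0209) without control A1, the library with the highest hair shaft sum. Without RoraEKO B4 it was 0.55 (edgeR adjusted p = 0.532), and with Xist as a covariate 0.39 (edgeR adjusted p = 0.589). Within letter A the difference was -0.32, within B 1.67 and within C 1.15 on the log2 scale. The part of the hair shaft markers in the level of A1 was not tested.

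Reads of Pla2g4b are uncertain in their origin, because the readthrough gene Gm28042 shares its exons on the same strand and the end of Sptbn5 overlaps it on the other strand. RSEM splits shared reads between Pla2g4b and Gm28042, and whether the counting used strand is not given in the sources used here. Gm28042 was estimated at 0.109 to 8.15 CPM in controls and 1.31 to 4.58 CPM in RoraEKO. Its direction was not clear, with a fitted log2 fold change of -0.57 (edgeR adjusted p = 0.808) and a difference of mean log2 CPM of 0.17 (SE 1.30). Sptbn5, a spectrin gene, was higher in RoraEKO, with 1.89 ± 0.673 CPM in control and 9.17 ± 2.76 CPM in RoraEKO (SD, n = 4 each) and a log2 fold change of 2.27 (SE 0.339, edgeR adjusted p = 0.00304). For the other members the overlapping annotated genes that the table holds had few reads or none. Gm13997 in Pla2g4e, Gm56332 in Pla2g4a, and Gm25280 and Pla2g2a in Pla2g5 had 0 counts in every library, and Inpp5j, which overlaps Pla2g3 on the other strand, had at most 5. Gm74915 overlaps Pla2g4e on the other strand, and Gm32930 and Gm69322 so overlap Pla2g5. Reads of these genes were not checked.

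Pla2g4a, on chromosome 1, encodes the classical cytosolic phospholipase that releases arachidonic acid. Its levels were 8.34, 14.3, 12.5 and 12.2 CPM in controls A1, B1, C1 and C6 and 9.72, 17.1, 8.91 and 9.34 CPM in RoraEKO A3, B4, C2 and C3. The groups overlapped, with RoraEKO B4 above all controls. Within letters A, B and C the differences were 0.22, 0.26 and -0.44 on the log2 scale, and the C libraries did not overlap. The log2 fold change was -0.06 (SE 0.275, edgeR adjusted p = 0.943), and its sign turned under 5 of the 20 other fits.

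Among the secreted members, Pla2g2f encodes the main secreted phospholipase of suprabasal keratinocytes, known for forming plasmalogen-type lysophospholipids in skin. Its levels were 1080, 1370, 1320 and 1400 CPM in controls A1, B1, C1 and C6. They were 901, 1410, 1390 and 992 CPM in RoraEKO A3, B4, C2 and C3. RoraEKO A3 and C3 lay below all controls, C2 within their range and B4 just above it. The log2 fold change was -0.14 (SE 0.187, edgeR adjusted p = 0.812).

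Pla2g2e encodes a secreted enzyme that in skin is known from hair follicles. Its levels were 164, 86.3, 68.9 and 32.7 CPM in controls A1, B1, C1 and C6 and 139, 91.2, 75.0 and 52.1 CPM in RoraEKO A3, B4, C2 and C3. The A library was the highest of either genotype, as it was for the summed hair shaft markers, whose part in this spread was not tested. A difference between genotypes was not detectable (log2 fold change 0.02, SE 0.563, edgeR adjusted p = 0.991), and within letters the differences were -0.23, 0.08 and 0.40 on the log2 scale.

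Pla2g5 encodes a secreted enzyme known from macrophages and other myeloid cells, from heart and from fat. It spans chr4:138526553-138590916 on the minus strand. Its levels were 15.5, 16.9, 16.7 and 24.3 CPM in controls A1, B1, C1 and C6. In RoraEKO A3, B4, C2 and C3 they were 7.63, 3.70, 14.7 and 9.79 CPM. Every RoraEKO library was below every control, but C2 came close to control A1. The mean in RoraEKO was 0.489 times that in control, with a log2 fold change of -1.03 (SE 0.437, edgeR adjusted p = 0.140), which did not pass. With the title letter as a block it was -1.14 (edgeR adjusted p = 0.0336). Within letters A, B and C the differences were -1.01, -2.16 and -0.74 on the log2 scale. The summed level of 7 macrophage markers overlapped between genotypes (4.86 to 16.6 CPM in control, 7.19 to 13.1 CPM in RoraEKO), and 1 of them, Cd163, was at 3 counts or fewer in every library.

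Pla2g3 encodes a secreted enzyme whose best known skin-related role is in mast cell maturation. Its levels were 27.5, 41.0, 30.5 and 62.0 CPM in controls A1, B1, C1 and C6 and 27.7, 18.6, 42.3 and 32.9 CPM in RoraEKO A3, B4, C2 and C3. Control C6 was the highest and RoraEKO B4 the lowest, and the rest were intermixed (log2 fold change -0.41, SE 0.362, edgeR adjusted p = 0.564). Of 7 mast cell markers, Cpa3, Mcpt4, Fcer1a and Ms4a2 were at 3 counts or fewer in every library, the last pair at 0. Without Mrgprb2 the other 6 markers together reached 1 to 5 counts in a control library and 1 to 8 counts in a RoraEKO library. Mrgprb2, a receptor of connective tissue mast cells, was at 8.11 to 33.5 CPM in controls and 1.15 to 11.3 CPM in RoraEKO (log2 fold change -1.66, SE 0.795, edgeR adjusted p = 0.165).

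**Figure D2:**
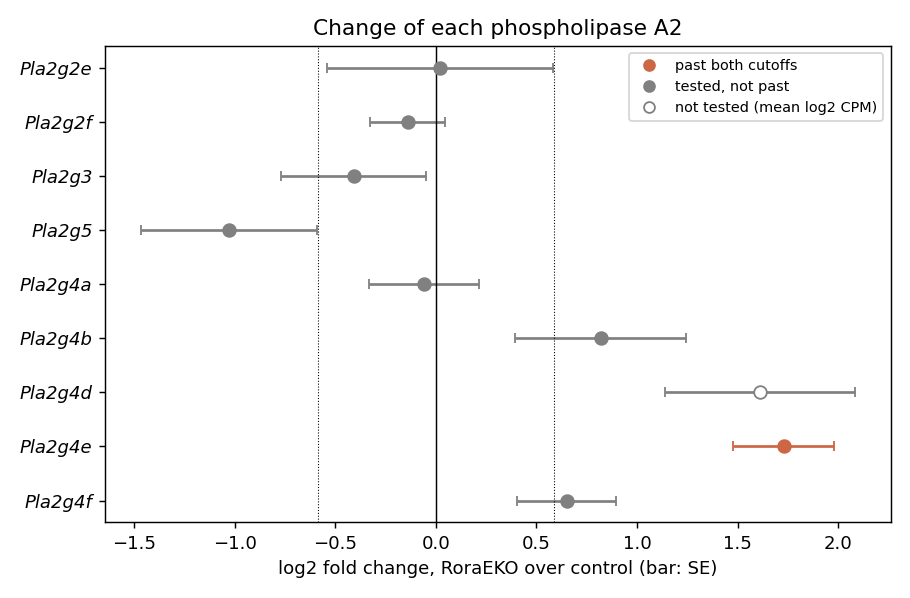
Log2 fold change of each phospholipase A2, RoraEKO over control, with its SE (n = 4 each); dotted lines mark the fold change cutoff of 1.5 in either direction. Pla2g4e at 1.73 is the only gene past both cutoffs, and Pla2g4d (open circle) was not tested and is drawn as the difference of mean log2 CPM, 1.61.

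Levels of different genes were compared as CPM per kilobase of merged exons. On this per-length scale the order in control was Pla2g2f (504 ± 57.3), Pla2g4f (92.2 ± 22.5), Pla2g2e (92.1 ± 58.0), Pla2g4b (8.77 ± 4.91), Pla2g3 (8.17 ± 3.17), Pla2g4e (6.98 ± 1.44), Pla2g5 (4.65 ± 1.02), Pla2g4a (1.58 ± 0.333) and Pla2g4d (0.0622 ± 0.0107), each as mean ± SD over 4 libraries. Pla2g4f and Pla2g2e did not differ beyond their spread, nor did Pla2g4b, Pla2g3 and Pla2g4e, and Pla2g4e and Pla2g5 overlapped within 1 SD of each mean. In RoraEKO the per-length level of Pla2g4e was 23.2 ± 5.31, next below Pla2g2e at 93.5 ± 38.7 and above Pla2g4b at 15.5 ± 5.24, with which it overlapped within 1 SD of each mean. The order of the other genes was as in control, with Pla2g2f first at 458 ± 103 and Pla2g4f second at 144 ± 25.4. The 9 genes together came to 718 ± 26.6 in control and 744 ± 121 in RoraEKO on the same scale (SD, n = 4 each), and these sums overlapped.

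The makeup of that sum differed more than its size. Pla2g2f held 70.0% ± 6.15 of it in control and 61.0% ± 4.57 in RoraEKO. Pla2g4f held 12.8% ± 2.89 and 19.5% ± 2.69, and Pla2g4e 0.976% ± 0.220 and 3.12% ± 0.572 (SD, n = 4 libraries per genotype). The 5 cytosolic genes together made up 12.1 to 16.9% of the per-length sum in control libraries and 21.5 to 29.2% in RoraEKO libraries, without overlap. The secreted genes made up the rest. These shares follow from the levels above and were not tested. Lengths of the longest annotated transcript in place of merged exons gave Pla2g4e a share of 1.29% in control and 4.09% in RoraEKO.

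**Figure D3:**
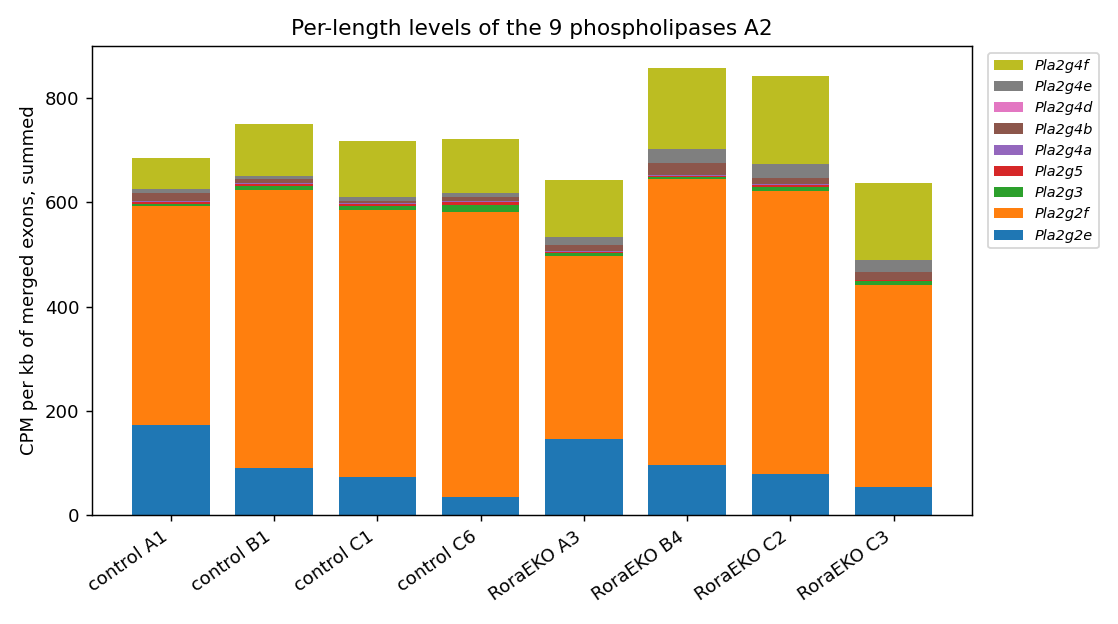
Summed CPM per kilobase of merged exons of the 9 phospholipases A2 in each library, stacked by gene. Pla2g2f fills most of every bar, and the cytosolic share (Pla2g4a to Pla2g4f) is 12.1 to 16.9% in the controls and 21.5 to 29.2% in RoraEKO.

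Most members sit in 2 gene clusters, one of them on chromosome 2 with 4 cytosolic members over 281 kb and the other on chromosome 4 with 3 secreted members over 132 kb. On chromosome 2, Sptbn5 and Ehd4 lay between Pla2g4b and Pla2g4e, and no gene shown lay between Pla2g4e, Pla2g4d and Pla2g4f. Sptbn5 passed the cutoffs, and Ehd4 had a log2 fold change of -0.48 (edgeR adjusted p = 0.250). Beyond Pla2g4f, Vps39 had 0.12 (edgeR adjusted p = 0.715) and Tmem87a -0.04 (edgeR adjusted p = 0.933). On the other side of Pla2g4b, Mapkbp1 had -0.23 (edgeR adjusted p = 0.753) and Jmjd7 -0.28 (edgeR adjusted p = 0.781). In the chromosome 4 cluster no tested gene passed. Pla2g2d, a further secreted phospholipase that lies between Pla2g2f and Pla2g5, had a log2 fold change of 0.70 (edgeR adjusted p = 0.306), against -1.03 for Pla2g5.

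**Figure D4:**
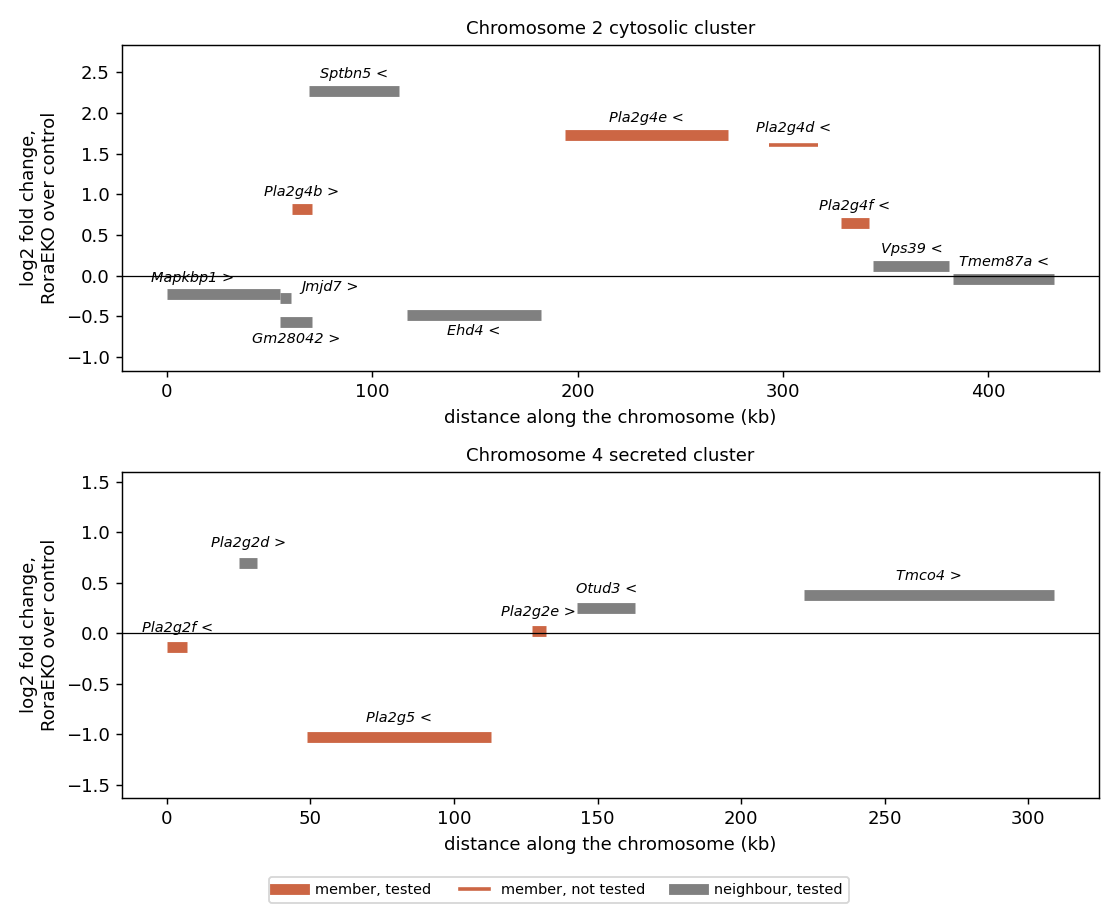
Log2 fold change, RoraEKO over control, of the genes in the chromosome 2 and chromosome 4 clusters that had at least 10 counts in a library, drawn along the chromosome from the first gene shown, with > and < for the strand. On chromosome 2, Pla2g4e (1.73), Pla2g4d (1.61, not tested, thin line) and Pla2g4f (0.65) lie between Ehd4 (-0.48) and Vps39 (0.12).

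The genes whose log2 CPM ran most like that of the 3 members with the smallest adjusted p are given as a description over the same 8 libraries. For Pla2g4e they were Foxj2 (Pearson r = 0.987), Gm19510 (r = 0.985) and Aopep (r = 0.984). For Pla2g4f they were Iffo2 (r = 0.995), Nrip3 (r = 0.991) and Tepsin (r = 0.990). For Pla2g5 they were Fbxw7 (r = 0.984), A4galt (r = 0.983) and Ccdc191 (r = 0.983). All points share the libraries and the genotype split, and the genes were picked as the highest of 13147.

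The other genes of phospholipid cleavage, repair and eicosanoid signalling numbered 89 in 13 lists, of which 63 were tested. Ptges passed the cutoffs upwards, Liph, Mboat2, Gdpd1 and Peds1 passed downwards, and the median log2 fold change of the 63 was -0.13. These 5 of 63 stand beside the 5.51% of all genes tested.

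None of the other phospholipases A2 passed. Of 7 other secreted forms, Pla2g12a and Pla2g2d were tested. Pla2g1b, Pla2g2a, Pla2g2c, Pla2g10 and Pla2g12b had 0 counts in every library, which allows at most 0.113 to 0.196 CPM. Pla2g12a had 8.30 ± 2.51 CPM in control and 6.78 ± 2.01 CPM in RoraEKO (log2 fold change -0.29, edgeR adjusted p = 0.680). Pla2g4c, the remaining cytosolic form, was too low to be tested, at 0.114 to 0.375 CPM in control and 0.392 to 0.799 CPM in RoraEKO. All 8 calcium-independent and patatin-like enzymes were tested and none passed, with Pnpla1, which completes the ω-O-acylceramides of the barrier, at 168 ± 22.8 and 143 ± 14.8 CPM (log2 fold change -0.23, edgeR adjusted p = 0.447). None of the 7 tested lysosomal, PLAAT and PAF-acetylhydrolase enzymes passed, and Pafah1b1 was at 120 ± 5.51 and 119 ± 4.54 CPM (SD, n = 4 each). Plaat3 was at 28.7 ± 9.39 CPM in control and 13.9 ± 5.46 CPM in RoraEKO (log2 fold change -1.05, SE 0.412, edgeR adjusted p = 0.110), and DESeq2 gave it -1.03 (adjusted p = 0.0366). Pla2g7 had a log2 fold change of 0.77 (edgeR adjusted p = 0.203), which became 1.08 (edgeR adjusted p = 0.0378) without control A1. Anxa1, a protein known for restraining cytosolic phospholipase A2, had a log2 fold change of 0.28 (edgeR adjusted p = 0.438). Pla2r1, the receptor of secreted forms, was not tested.

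Liph, which cleaves phosphatidic acid at its first position to form lysophosphatidic acid in hair follicles, was at 52.4, 46.8, 44.1 and 64.2 CPM in controls A1, B1, C1 and C6. In RoraEKO A3, B4, C2 and C3 it was at 18.9, 24.8, 15.0 and 15.5 CPM. No libraries overlapped, and the gene fell by 1.48 on the log2 scale (SE 0.203, edgeR adjusted p = 0.00203). It was 1 of 3 tested phospholipases A1, all with negative values. Among the 4 tested lysophosphatidic acid receptors none passed, and Lpar5 had a log2 fold change of 0.65 (edgeR adjusted p = 0.381).

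Mboat2, which puts a fatty acid back on lysophospholipids, had 392 ± 106 CPM in control and 150 ± 29.9 CPM in RoraEKO (SD, n = 4 each), and it fell by 1.39 (SE 0.246, edgeR adjusted p = 0.00652). The other 7 tested reacylating enzymes did not pass. Gdpd1, which cleaves lysophospholipids and N-acyl lysophospholipids with a phosphodiesterase fold, had 51.7 ± 4.86 and 23.7 ± 5.63 CPM and fell by 1.12 (SE 0.183, edgeR adjusted p = 0.00484), alone among 9 tested genes of its list. Peds1, the desaturase that forms the vinyl ether bond of plasmalogens, had 87.3 ± 13.5 and 39.4 ± 4.11 CPM and fell by 1.15 (SE 0.140, edgeR adjusted p = 0.00172), alone among 5 tested genes of plasmalogen synthesis. For each of these 3 genes every RoraEKO library was below every control.

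Ptges, the inducible terminal synthase of prostaglandin E2, was at 60.1, 97.5, 87.1 and 95.0 CPM in controls A1, B1, C1 and C6. It was at 135, 233, 240 and 186 CPM in RoraEKO A3, B4, C2 and C3. The genotypes did not overlap, the A library was the lowest in each, and the log2 fold change was 1.23 (SE 0.250, edgeR adjusted p = 0.00961). Of 11 genes of prostanoid synthesis and breakdown 8 were tested, and the remaining 7 tested did not pass. Among them Hpgds, a prostaglandin D2 synthase, was at 11.8 to 21.3 CPM in control and 22.6 to 33.3 CPM in RoraEKO without overlap (log2 fold change 0.64, SE 0.238, edgeR adjusted p = 0.113). With the title letter as a block it was 0.66 (edgeR adjusted p = 0.00708). The inducible cyclooxygenase Ptgs2 was below the filter, with 2 counts in control A1 and 0 in the other controls, and with 0, 10, 23 and 9 counts in RoraEKO A3, B4, C2 and C3. Ptgs1, the constitutive cyclooxygenase, had 176 CPM in control and 154 CPM in RoraEKO on average (log2 fold change -0.19, edgeR adjusted p = 0.771). Neither the 3 tested genes of leukotriene synthesis nor the 5 tested prostanoid and leukotriene receptors passed. Lta4h, which makes leukotriene B4, was at 30.0 ± 4.17 and 31.1 ± 1.70 CPM, and its receptor Ltb4r1 had a log2 fold change of 0.29 (edgeR adjusted p = 0.670). Ptger3, a receptor of prostaglandin E2, was at 6.32 CPM in control A1, 1.28 to 2.02 CPM in the other controls and 5.79 to 9.49 CPM in RoraEKO. Its log2 fold change was 1.32 (SE 0.508, edgeR adjusted p = 0.147). It was 1.57 (edgeR adjusted p = 0.0370) with the title letter as a block and 2.08 (edgeR adjusted p = 0.00222) without control A1, but 0.74 (edgeR adjusted p = 0.364) with Xist as a covariate.

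**Figure D5:**
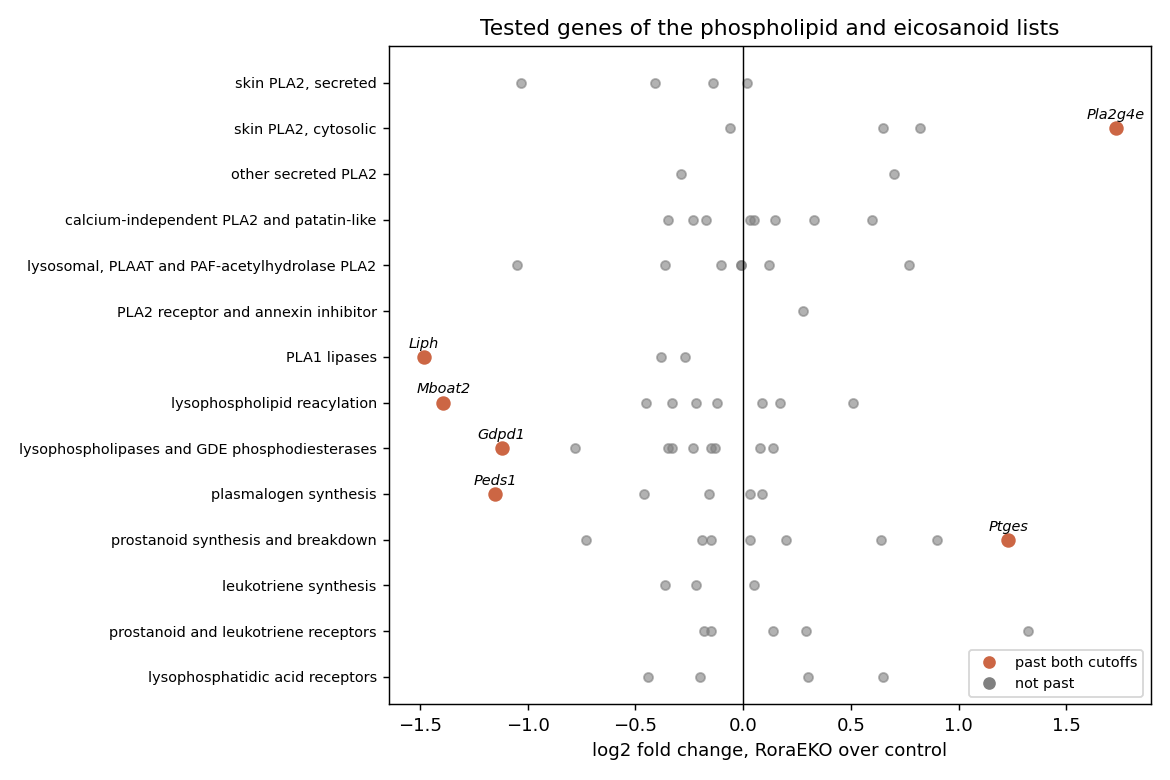
Log2 fold change, RoraEKO over control, of each tested gene in the lists of phospholipid and eicosanoid genes, 1 row per list, with genes past both cutoffs in orange and named. Pla2g4e (1.73) and Ptges (1.23) lie to the right, and Liph (-1.48), Mboat2 (-1.39), Peds1 (-1.15) and Gdpd1 (-1.12) to the left.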

How the data were processed

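RNA-seq was done on P4 dorsal epidermis, 4 control and 4 RoraEKO libraries (TruSeq Stranded mRNA). The authors converted the reads with bcl2fastq 2.20.0.422, used Skewer for trimming and STAR 2.5.3a for mapping to GRCm39, and deposited RSEM expected counts per Ensembl gene, without normalization. The release of their annotation and the strand setting of the counting are not given in the sources used here. Reads that RSEM shares between overlapping genes are estimates.

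Genotypes were taken from the labels. Expected counts were rounded, filtered with filterByExpr, scaled with TMM and fitted over the whole table in edgeR 4.0.16 (R 4.3.3), quasi-likelihood test in its legacy form without covariates. Adjusted p-values were Benjamini-Hochberg over all 13147 genes tested. SEs were computed from log2 CPM with a prior count of 2, for the difference between the genotype means. Floors of 3 counts cover counting error only. Symbols, coordinates and lengths came from GENCODE release 39, which held 54749 of the 55416 identifiers, and upstream bases from the GRCm39 genome. Members and lists were chosen with earlier results of these data known. The named genes were all members, each listed gene past the cutoffs or, in lists without one, the tested gene with the highest per-length level, and the 3 genes most correlated with each of 3 members. Genes named beyond this rule were chosen after their values were seen. Alternatives included DESeq2 1.42.0, and the fits were tested on simulated data. Plots were drawn with matplotlib 3.10.9.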

Additional observations from a re-analysis of the deposited data

Results flagged for a closer look

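In 28 groups of 4 libraries, those of the 9 members and of the 5 listed genes past the cutoffs, 4 held a library far from the other 3, where chance gives about 1 in 20. The gap from that library to its nearest neighbour, divided by the range of the group, exceeded Dixon's critical value for 4 samples. Pla2g4a was at 17.1 CPM in RoraEKO B4 (ratio 0.902), and Pla2g4b was at 136 CPM in the same library (ratio 0.847). Pla2g5 was at 24.3 CPM in control C6 (ratio 0.838). Pla2g4f was at 189 CPM in control A1, below the other controls (ratio 0.837). RoraEKO B4 also had the highest levels of the basal keratins Krt14 (706 CPM) and Krt5 (371 CPM) among the 8 libraries, which brought the sum of 6 basal keratinocyte markers to 1200 CPM against 247 to 596 CPM elsewhere. Itga6 was also highest there (5.88 CPM), Itgb4 and Col17a1 were the highest of the RoraEKO libraries (7.73 and 52.1 CPM), and Krt15 was at its lowest (55.4 CPM). The part of these cells in the levels of Pla2g4a and Pla2g4b was not tested.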

How the results depend on the processing

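Pla2g4e passed both cutoffs in every fit run. The number of members past the cutoffs was 1 in the fit reported, and it was 2 with DESeq2 (Pla2g4f added), 2 with all genes of at least 1 count (Pla2g4d added), 2 with the letter C libraries only (Pla2g4b added) and 3 with the title letter as a block (Pla2g4f and Pla2g5 added). Leaving out each library in turn gave 1 to 2 members, with Pla2g4d added without RoraEKO A3 (log2 fold change 2.51, edgeR adjusted p = 0.0110), where it passed the filter only through the RoraEKO libraries in which it is high, and Pla2g4b added without control A1. The 5 other phospholipid and eicosanoid genes past the cutoffs passed in every fit, and DESeq2 brought their number to 8 (Plaat3, Hpgds and Ptger3 added). It was 7 with the title letter as a block (Hpgds, Ptger3), with the letter C libraries only and without control A1 (Pla2g7, Ptger3 in both). It was 6 with the exact and likelihood ratio tests (Plaat3) and without RoraEKO A3 (Ptgs2, which is below the filter in the fit reported and passed it here only through the RoraEKO libraries in which it is high). The sign of Pla2g2e turned with Xist as a covariate (-0.54), with library size alone (-0.05) and without RoraEKO A3 (-0.22), control C1 (-0.08) or control C6 (-0.22). That of Pla2g2f turned without RoraEKO A3 (0.02). That of Pla2g4a turned with Xist as a covariate (0.01) and without RoraEKO A3 (0.06), C2 (0.11), C3 (0.02) or control B1 (0.04). Over the fits without 1 library, Pla2g2e ran from -0.22 to 0.51, Pla2g2f from -0.24 to 0.02 and Pla2g4a from -0.34 to 0.11. None of these 3 genes passed in any fit. Shares of the per-length sum moved by more than their SD only with the longest transcript as the length, for 9 of 90 values. The cause of these changes was not tested. What the title letters pair is not given in the labels, and the block on them is the only fit that pairs libraries across genotypes. In the fit of the letter C libraries only, Xist and genotype coincide and cannot be told apart.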
